A study of Homo sapiens with 4 samples.

Results

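Whole-cell RNA was compared between the 2 MiaPaCa lines of the series, which carried variant 1 or variant 2 of SRP9. The comparison covers the 18917 Ensembl gene IDs, of 60676 listed, whose peak count, the larger of their counts in these libraries, was 50 or more. MiaPaCa is an established human pancreatic cancer cell line. Each line expressed its SRP9 variant from a pIRES2 plasmid, fused to 3xFLAG and to a nuclear localisation signal, together with the fluorescent reporter acGFP1. Both lines were electroporated, selected with Geneticin, sorted for the reporter and grown in the same medium (RPMI1640 with serum), per the labels' protocols. They thus share the tag, the localisation signal, the reporter and the selection, and differ by label in the SRP9 variant alone. The labels describe sorted cells and mention no single clone. Untransfected cells and cells with the plasmid but no SRP9 were not analysed here, so a level cannot be read against the parent line. The whole-cell RNA (input) came from the cells used for RNA immunoprecipitation (RIP), and there was 1 input and 1 RIP library per variant.

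SRP9 is a small protein that pairs with SRP14 on the Alu domain of 7SL RNA. In the cytoplasm that domain of the signal recognition particle slows elongation while a ribosome making a secreted or membrane protein is brought to the endoplasmic reticulum. The title of the series concerns movement of SRP9 into the nucleus that depends on amino acids, and the inputs show the background RNA of the cells in which both variants were placed there.

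The deposited tables give Ensembl IDs without gene names, and the reference table at hand (59792 genes) pairs 0 of them with an Ensembl ID. Members are therefore described by ID, by level and by behaviour across the 4 libraries. Gene roles, the level of SRP9 itself and markers of the pancreatic lineage or of other cell types were not examined for this reason, and neither the variant labels nor the cell line label was checked against them. With 1 library a side there is no replicate check and no test. A difference below is a difference between these 2 libraries.

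Total counts of the inputs were 50454080 (variant 1) and 58815384 (variant 2). The members took 99.7% and 99.8% of these counts. Of the other IDs, 28425 had 0 counts in both inputs and 13334 had a count but stayed under the minimum. Levels are given as CPM, counts scaled to a common library total. The median member had 11.2 CPM in variant 1 and 11.5 CPM in variant 2. A minimum of 50 counts is 0.991 CPM in the former and 0.850 CPM in the latter, so an ID enters at a slightly lower level through variant 2. The RIP libraries were shallower, with 3921361 and 5211354 counts.

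The cells of both lines had closely similar abundant RNAs. Of the 10 most abundant IDs of each input, 9 were the same, and of the 100 most abundant, 94 (94% of each list). The 38 IDs with a peak count of at least 100000 took 14.8% and 14.6% of the counts, and the widest difference among them was 1.26-fold. The next 386 IDs, from 20000 counts, took 24.3% and 24.1%, with at most 1.76-fold between the inputs. The 2106 IDs from 5000 to under 20000 took 32.9% and 33.1%, and among them the widest difference was 4.58-fold, while 83.3% lay within 1.2-fold. The 10 most abundant IDs took 7.05% and 6.93% of all counts. These 3 classes together held most of the counts of each library.

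The RNAs that differed were mostly scarce ones. Across all members, 1988 IDs were higher in variant 1 by 2-fold or more (10.5% of members), and 2192 were lower by as much (11.6%). Most of these IDs met the minimum through the higher side alone: with 50 counts required on both sides, 580 of 15436 IDs were higher and 590 lower. The higher IDs took 0.669% of the counts of variant 1 and 0.201% of those of variant 2. The lower IDs took 0.280% and 0.864%. The 14737 IDs within 2-fold held 98.8% and 98.7% of the counts. The median higher ID had 94.5 counts in the input of variant 1 and 23.1 in that of variant 2, and the median lower ID had 20 and 108.5 counts. IDs within 2-fold had medians of 1034 and 1237 counts. The 2-fold sets therefore lie at the low end of the range, while the shared RNAs lie far above them.

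**Figure D1:**
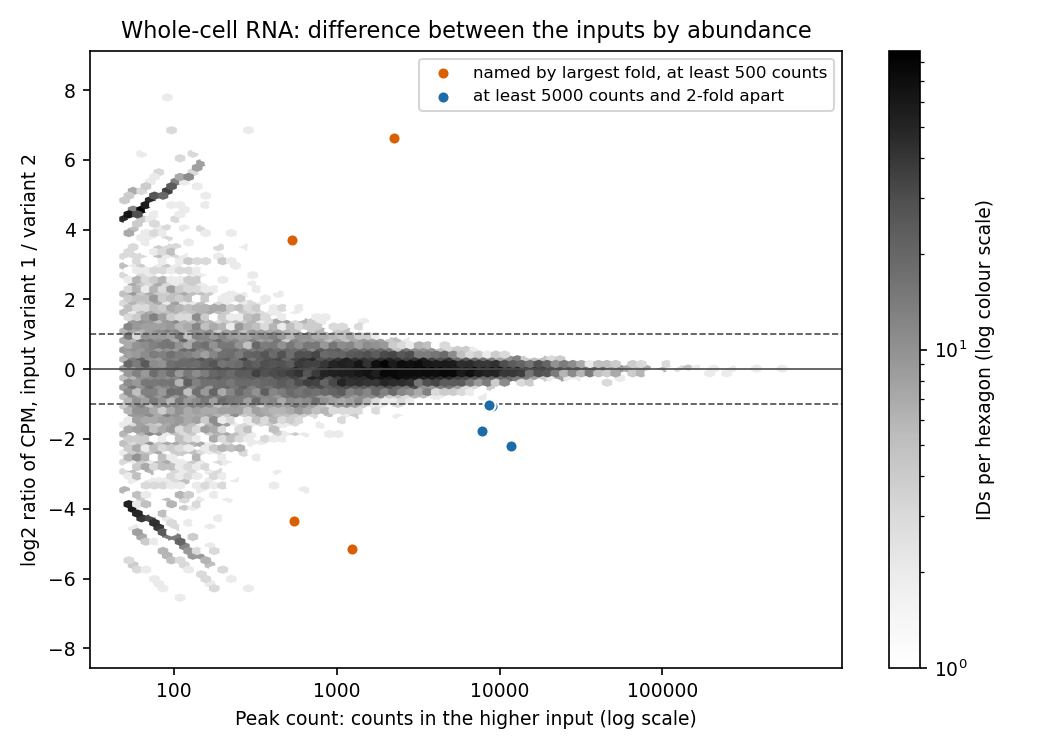
Each hexagon holds members by their peak count (log axis) and their log2 ratio of CPM, input of variant 1 over variant 2; the shade gives the number of IDs on a log scale and dashed lines mark 2-fold. The cloud narrows toward abundant IDs, the dense oblique bands at the left are IDs at 0 counts in 1 input (set to 3 counts), and the 8 coloured points are the IDs described singly in the text.

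The share of IDs that differed fell step by step with abundance. Among 3077 IDs with a peak count of 50 to under 100, 34.8% were 2-fold or more higher in variant 1 and 32.0% were 2-fold or more lower. Among 2432 IDs from 100 to under 200 the shares were 20.4% and 26.1%, and among 2747 IDs with 200 to under 500 counts 11.1% and 13%. They were 3.57% and 5.97% among 2295 IDs with 500 to under 1000 counts. They were 0.548% and 1.25% among 5836 IDs with 1000 to under 5000 counts. Of the 4180 IDs at least 2-fold apart in either direction, 3852 (92.2%) had a peak count under 500, a range that held 43.6% of the members. From 20000 counts downward, every step down in abundance raised the share of IDs apart, and both directions were present in every class under 5000 counts.

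The spread of the log2 ratio showed the same decline. Over IDs with a count in both inputs it was, as a scaled median absolute deviation, 1.73 in the class from 50 counts, 1.28 from 100, 0.76 from 200, 0.53 from 500, 0.33 from 1000, 0.18 from 5000 and 0.10 from 20000 counts. With the IDs at 0 included (set to 3 counts), it was 2.73 in the class from 50 counts and 1.36 in that from 100. Counting error alone, for single reads at the counts of these IDs, gives an SD of 0.32 in the class from 50 counts, 0.084 in that from 500 and 0.012 in that from 20000. Over the same IDs the spread was 5.47 times this SD in the class from 50 counts, 6.31 times from 500 and 8.13 times from 20000. Libraries of separate cultures vary by more than counting, so this gives the size of the excess and not its source. The part of cultures, library preparation and amplification in it was not tested, since no line has a second input.

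**Figure D2:**
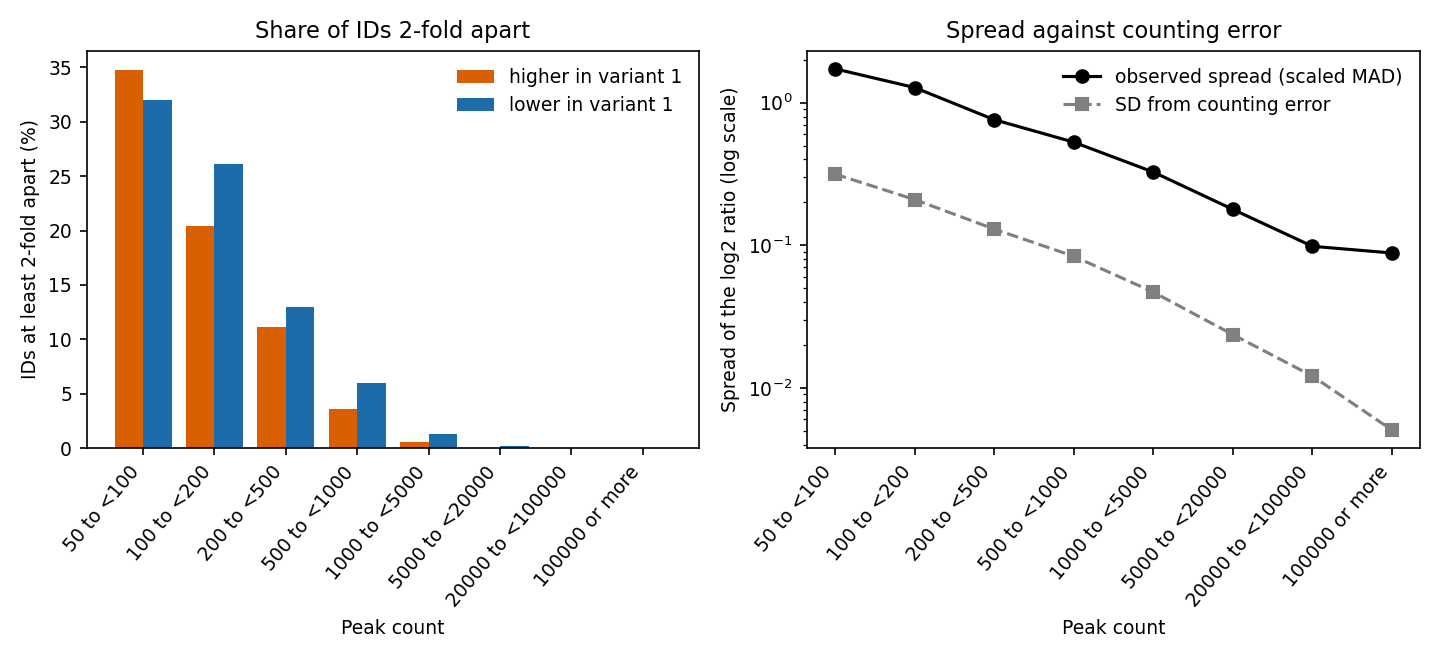
Left, the percentage of members at least 2-fold higher (orange) or lower (blue) in the input of variant 1, by peak count, falling from 34.8% and 32.0% to 0. Right, the spread of the log2 ratio over IDs detected in both inputs (circles, scaled median absolute deviation) and the SD that counting error alone gives (squares), both on a log axis; the observed spread lies above counting error in all 8 classes.

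Grouping on the peak count fixes part of this pattern, because 1 side then always lies inside the class, while the other can take any count down to 0. With classes formed on the mean of both inputs instead, which leaves out members with a mean under 50, the class from 50 counts had 2323 IDs, of which 53.4% were at least 2-fold apart (against 66.9%), and a spread of 1.62. That from 500 counts had 6.05% apart and a spread of 0.49. The classes were also formed on 1 input alone. Variant 1 had 50 to under 100 counts for 2444 IDs, of which 17.6% had no count with variant 2. Variant 2 had such counts for 2296 IDs, of which 14.8% had no count with variant 1. The median level of the former was 1.37 CPM with variant 1, by which they were chosen, and 0.884 CPM with variant 2, where their quartiles were 0.170 and 1.82 CPM. For the 2297 IDs with 500 to under 1000 counts in variant 1 the medians were 14.2 and 14.5 CPM, the quartiles with variant 2 were 11.1 and 18.6 CPM, and 0 IDs lacked a count. Choosing on 1 input favours IDs that are high in it. Of the 2444 IDs, 43.9% were 2-fold or more higher in variant 1 and 10.1% were as much lower. Of the 2296 IDs, 42.9% were 2-fold or more higher in variant 2 and 11.7% were as much lower. IDs of about 1 CPM thus often had unequal levels in these 2 libraries, in part through the choice. Most IDs of over 10 CPM had similar levels, whichever input formed the classes. With 500 to under 1000 counts in variant 1, 3.57% of IDs were 2-fold or more higher in that input and 1.39% as much lower. With such counts in variant 2, 6.17% were 2-fold or more higher in that input and 1.26% as much lower.

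Some of the scarce RNAs had counts in 1 input and none in the other. There were 487 members with 0 counts in the input of variant 2 and 426 with 0 counts in that of variant 1. Together these were 913 of the 18917 members, and each met the minimum through the other input alone. By counting error alone, a 0 allows up to 3 counts, or 0.0595 CPM (variant 1) and 0.0510 CPM (variant 2). The IDs at 0 for variant 2 had a median of 66 counts for variant 1, and those at 0 for variant 1 had a median of 71 counts for variant 2, both not far above the minimum that chose them. The highest count opposite a 0 was 286 for variant 1 (5.67 CPM, at least 111-fold) and 458 for variant 2 (7.79 CPM, at least 131-fold). These bounds count each read singly and are 2 times lower if both reads of a fragment were counted.

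Counts opposite such an ID did not fade gradually to 0. Among the 3077 IDs with a peak count of 50 to under 100, 770 (25.02%) were at 0 in the lower input, while 215 (6.99%) had over 0 and under 5 counts and 176 (5.72%) had 5 to under 10. A further 542 (17.6%) had 10 to under 25 and 1374 (44.7%) had 25 or more. From 100 to under 200 counts, 132 of 2432 IDs (5.43%) were at 0, 83 had over 0 and under 5, and 1942 (79.9%) had 25 or more. Zeros thus outnumbered counts of 1 to a few in both classes, and from 500 counts upward no ID was at 0 in either input.

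The limit of 50 counts cuts through this region of zeros. Just inside it, 819 IDs had a peak count of 50 to under 60, of which 71.8% were at least 2-fold apart and 31.6% at 0 in 1 input. Just outside, 1128 IDs had one of 40 to under 50, with 73.2% and 38.6%. The numbers of IDs apart therefore depend on where the limit is set.

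Among well-measured RNAs, more IDs were lower than higher in the cells with variant 1. Of 10661 members with a peak count of at least 500, 114 (1.07%) were 2-fold or more higher and 214 (2.01%) were 2-fold or more lower. Part of this imbalance follows from the deeper input of variant 2, for which 500 counts is 8.50 CPM against 9.91 CPM for variant 1. With a limit of 10 CPM instead, 112 IDs were higher and 162 lower. With TMM scaling the numbers at 500 counts were 126 and 193. The middle member of this set hardly moved (median log2 ratio -0.03), and 60.1% of the set lay within 1.2-fold.

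The single IDs with the largest folds from 500 counts upward stood far outside this cloud. ENSG00000238825 had 2245 counts in the input of variant 1 (44.5 CPM) and 26.4 in that of variant 2 (0.449 CPM). It was 99.1-fold higher in variant 1 (95% exact conditional interval 68.5 to 154, counting error only). In the RIP libraries the same ID had 3 counts with variant 1 (0.765 CPM) and 20 with variant 2 (3.84 CPM), a 5.02-fold higher level with variant 2 (1.49 to 26.4). Its level was thus high in 1 of the 4 libraries, and its input and RIP differences had opposite signs.

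ENSG00000287769 had 529.5 counts in the input of variant 1 (10.5 CPM) and 47.5 in that of variant 2 (0.808 CPM), a 12.99-fold difference (9.57 to 17.7). Its RIP libraries held 41 and 49 counts, or 10.5 and 9.40 CPM. The low library here was the input of variant 2, and the other 3 lay close together. Both IDs had fractional counts in an input, which arise when a read is divided between genes or positions, so part of their reads may belong to other loci. The third-largest fold in this direction was 7.20.

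In the other direction, ENSG00000172867 had 30 counts in the input of variant 1 (0.595 CPM) and 1252 in that of variant 2 (21.3 CPM), and so was 35.8-fold higher in variant 2 (24.95 to 53.3). Its RIP libraries held 200 counts with variant 1 (51.0 CPM) and 83 with variant 2 (15.9 CPM). Its input counts held fractions of a read. The input of variant 1 was the only low library, and the RIP library made from the same cells was the highest of the 4.

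ENSG00000134321 had 23 counts in the input of variant 1 (0.456 CPM) and 546 in that of variant 2 (9.28 CPM), 20.4-fold higher in variant 2 (13.4 to 32.4). In RIP it had 218 and 165 counts, or 55.6 and 31.7 CPM. For this ID, too, the line with the lower whole-cell level had the higher RIP level. The third-largest fold in this direction was 12.4.

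At high abundance, 4 RNAs differed by 2-fold or more, and all 4 were lower in the cells with variant 1. They were found among 2530 members with a peak count of at least 5000, of which 0 (0%) were 2-fold or more higher and 4 (0.158%) were 2-fold or more lower. No test stands behind this count of 0, as each side is 1 library. The largest difference toward variant 1 in this set was 1.76-fold. These 4 IDs were singled out after their values were seen. With a limit of 100 CPM in place of 5000 counts, 2227 IDs remained, with 0 higher and 4 lower.

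ENSG00000224578 had 2214 counts in the input of variant 1 (43.9 CPM) and 11811 in that of variant 2 (201 CPM), and was 4.58-fold higher in variant 2 (4.37 to 4.79). Its RIP libraries had 25.3 and 44.4 CPM with variants 1 and 2. Its counts held fractions of a read in both inputs, so reads may be shared with other loci.

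ENSG00000116717 had 1966 and 7844 counts in the inputs of variants 1 and 2 (39.0 and 133 CPM), a 3.42-fold higher level with variant 2 (3.26 to 3.60). In RIP it had 16 and 185 counts, or 4.08 and 35.5 CPM. It was thus lower with variant 1 in both fractions, by 8.70-fold in RIP (5.22 to 15.5).

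ENSG00000177606 had 3716 and 9048 counts in the inputs (73.7 and 154 CPM), 2.09-fold higher with variant 2 (2.01 to 2.17). Its RIP libraries had 12.2 and 36.8 CPM. ENSG00000164442 had 3598 and 8559 counts in the inputs (71.3 and 146 CPM), 2.04-fold higher with variant 2 (1.96 to 2.12), and 27.8 and 49.3 CPM in RIP. All 4 of these abundant IDs were lower with variant 1 in the inputs and in RIP. Of the 4 IDs named for the largest folds, 3 had opposite signs in the 2 fractions. Either sign in RIP was about equally common among all IDs apart with a peak count of at least 500. RIP of variant 1 was below RIP of variant 2 for 88 of 176 lower IDs and 48 of 98 higher ones. Sets of 4 are too small to set against these shares. The interval of ENSG00000164442 reaches below 2-fold.

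**Figure D3:**
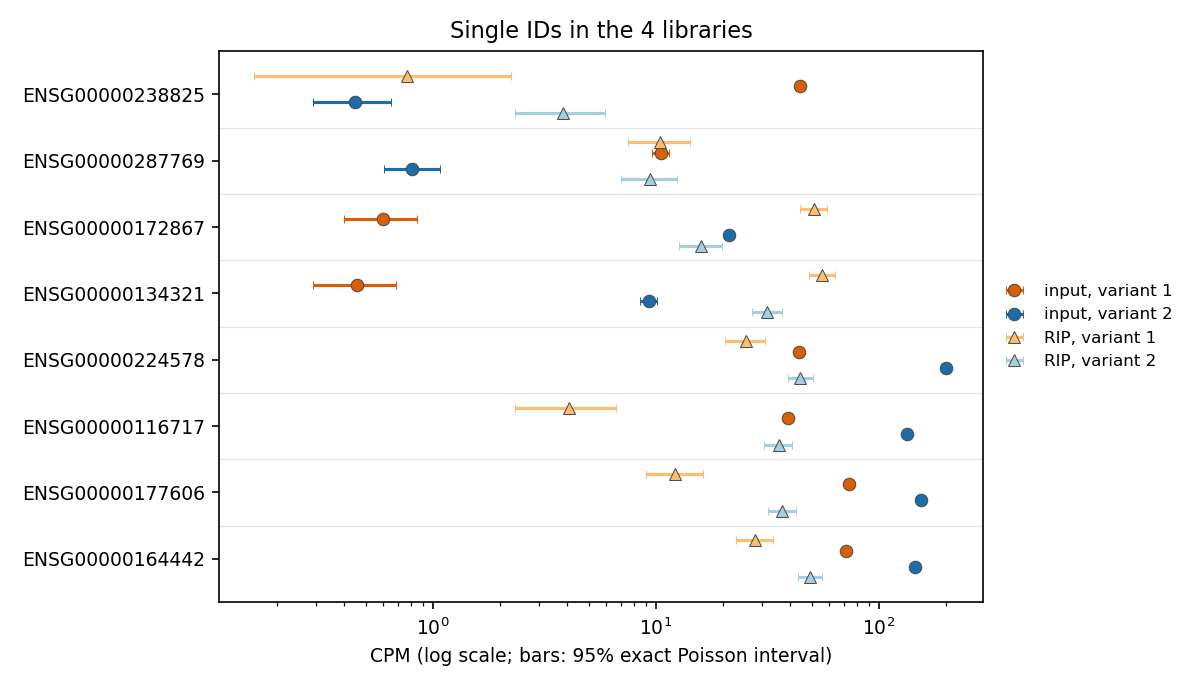
CPM (log axis) of the 8 IDs described singly, in the inputs (circles) and the RIP libraries (triangles) of variant 1 (orange) and variant 2 (blue), with 95% exact Poisson intervals that cover counting error only. In the upper 4 IDs 1 input stands apart from the other, by 12.99-fold to 99.1-fold; in the lower 4, variant 1 is below variant 2 in both fractions.

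The RIP libraries came from the same lines and share no library with the inputs. They held a count for 44658 (variant 1) and 51589 (variant 2) IDs, against 28372 and 26720 in the deeper inputs. None of the 4 libraries is a RIP without the tagged protein, so bound RNA and background RNA cannot be told apart. The RIP values show only whether an RNA that differed between the inputs also differed between the RIP libraries. At least 1 RIP library held 50 or more counts for 14827 members. Of these, 11.4% were 2-fold or more higher in RIP of variant 1 and 16.2% were 2-fold or more lower. For the 1356 of these that were at least 2-fold higher in the input of variant 1, the shares were 13.1% and 20.2%. For the 1331 that were at least 2-fold lower, they were 14.8% and 21.9%. Both shares were thus above those of all members in each set, and in both sets more IDs were lower than higher. The sets were also scarcer in RIP, with medians of 13.2 and 14.4 CPM (variants 1 and 2) for the higher set and 10.2 and 11.1 CPM for the lower set, against 21.7 and 22.4 CPM for all members. The part of this lower level in the wider spread was not tested.

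Across the members as a whole, the direction in the inputs did not carry over to RIP. The median log2 ratio of RIP, variant 1 over variant 2, was -0.11 for IDs higher in the input of variant 1 and -0.13 for IDs lower there, against -0.03 for the 12140 IDs within 2-fold. RIP of variant 1 was above RIP of variant 2 for 45.4% of the higher IDs and 45.4% of the lower ones, against 48.7% of those within 2-fold. Across the 14827 IDs the log2 ratios of inputs and RIP had correlations of 0.0028 (Pearson) and 0.0031 (Spearman). These are across IDs, which are not independent replicates, and the RIP counts are shallow. For a peak count of at least 500, 51.0% of 98 higher IDs and 50.0% of 176 lower IDs were above 0 in RIP.

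RNAs without a count in 1 input were mostly recovered in RIP from both lines. For the 487 members at 0 in the input of variant 2, the median was 14.5 CPM in RIP of variant 1 and 14.8 CPM in RIP of variant 2, and a count was present for 88.7% and 96.9% of them. For the 426 members at 0 in the input of variant 1 the medians were 7.14 and 9.17 CPM, with a count for 81.9% and 92.7%. Over all members a count was present for 94.5% and 98.1%, and over the 28425 IDs at 0 in both inputs for 58.5% and 74.9%. Over the 13334 IDs with a count in an input but under the minimum, it was present for 76.0% and 88.1%. A count in RIP was thus common for IDs of every kind. The members without a count in 1 input lay between these scarcer IDs and all members.

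For abundant IDs, too, the ratios of the inputs and of RIP were hardly related across IDs, with correlations of 0.043 (Pearson) and 0.0048 (Spearman) over 2522 IDs with a peak count of at least 5000. Of the 19 that were at least 1.5-fold lower in the input of variant 1, 10.5% were at least 2-fold lower in RIP, against 9.69% of the 2497 within 1.5-fold. Of the 6 at least 1.5-fold higher, 3 were at least 2-fold higher in RIP, against 7.17% of those within 1.5-fold. The median RIP log2 ratio was 1.08 for the 6 higher IDs, -0.30 for the 19 lower ones and 0.01 for those within 1.5-fold. RIP of variant 1 was above RIP of variant 2 for 4 of the 6 higher IDs and below it for 11 of the 19 lower ones. Both small sets thus leaned the same way as in the inputs, which was not tested. These small sets were chosen after the values were seen.

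**Figure D4:**
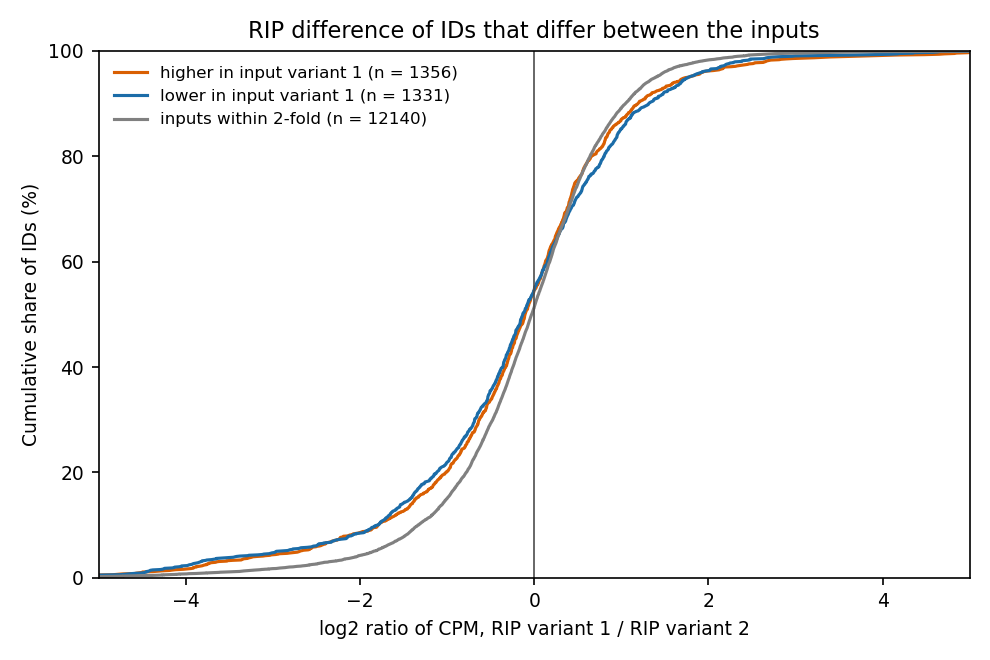
Cumulative percentage of IDs by the log2 ratio of CPM, RIP of variant 1 over RIP of variant 2, for members at least 2-fold higher (orange) or lower (blue) in the input of variant 1 and for members within 2-fold (grey), all with 50 or more counts in a RIP library; values beyond 5 on either side are not drawn. The orange and blue curves have close medians (-0.11 and -0.13), and both are wider than the grey one. Their scaled median absolute deviations are 0.95 (orange) and 1.08 (blue), against 0.83 (grey).

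The deposited counts also differ in how reads were assigned. An input value with a fraction of a read was present for 8744 members, and 10173 had whole values in both inputs. A value of 0 is whole, so the groups were set side by side only from 500 counts upward, where no ID was at 0. There 0.807% of 5205 IDs with fractions were higher in variant 1 by 2-fold or more and 1.63% lower, against 1.32% and 2.36% of the 5456 whole-valued ones. The difference between these shares was not tested. The values of 40 members were identical to those of some other ID throughout, so these are not independent measurements.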

How the data were processed

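Whole-cell RNA (input) and RIP libraries of 2 SRP9 variants in MiaPaCa cells were used, with 1 library per group. The values deposited by the authors are estimated counts per Ensembl ID, without normalization as far as the column names and totals show. Per the submitters' processing notes, HISAT2 2.1.0, featureCounts and Subread 2.0.0 were used with GRCh38.p13. For the annotation release, the strand setting and multi-mapping reads the sources used here give nothing. Between 13.9% and 18.0% of the values per library hold a fraction of a read.

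Counts were divided by the library total (CPM). Log2 ratios are input of variant 1 over variant 2, with a library at 0 set to 3 counts. IDs were kept with a peak count (the larger input count) of at least 50. Intervals (95%) are exact Poisson intervals for CPM and exact conditional binomial intervals for ratios, on rounded counts. They cover counting error only, since amplified reads are not independent molecules. The counts of each ID set their relative width, and the library totals only scale them. The counting SD of a log2 ratio was taken from the inverse counts of IDs with a count in both inputs. The calculation of fold counts and ratio intervals was checked on simulated counts with counting error only, in which the changed IDs lay above the count minimum. The simulation holds no spread beyond counting error. It therefore cannot show how many of the IDs apart reflect such spread. TMM (edgeR 4.0.16) and DESeq2 1.42.0 size factors served as other scalings (R 4.3.3), and the rest ran in Python 3.11.15 (pandas 2.3.3, scipy 1.17.1).

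The members, limits and lists were chosen with earlier results of these data known. Single IDs are the 2 with the largest ratio in each direction among IDs with a peak count of at least 500 and values shared with no other ID. All IDs with at least 5000 counts and 2-fold apart were added. With no ID matched to a gene name, the 52 gene lists (1219 symbols) were not evaluated, protein-coding IDs were not analysed apart, and no promoter sequence could be tied to a member.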

Additional observations from a re-analysis of the deposited data

Results flagged for a closer look

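Of the 8 IDs described singly, 3 had a difference between variants in the inputs and one of opposite sign in RIP. Each side is 1 library, so the opposition was not tested. These 3 IDs were named for their large input ratios, which make up most of each difference below. Opposite signs were also common among IDs apart with a peak count of at least 500. They occurred for 48 of 98 higher IDs and 88 of 176 lower ones. ENSG00000238825 had a log2 ratio of variant 1 over variant 2 of 6.63 in the inputs and -2.33 in RIP, which differ by 8.96. Its RIP ratio rests on 3 and 20 counts, 5.02-fold higher with variant 2 (95% exact interval 1.49 to 26.4). For ENSG00000172867 the ratios were -5.16 and 1.68, a difference of -6.84. For ENSG00000134321 they were -4.35 and 0.81, a difference of -5.16.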

How the results depend on the processing

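The log2 ratios of the 8 single IDs stayed within their counting intervals in the 32 values under the 3 other scalings and the prior count; the other alternatives cannot move the ratio of a single ID. The limits in CPM were chosen after seeing the data. Of the 10173 whole-valued IDs, 28.6% were at least 2-fold apart (1409 higher and 1502 lower in variant 1), against 22.1% of all members. A value of 0 is whole, and every member at 0 in 1 input is at least 2-fold apart. These 2 shares therefore do not compare ways of assigning reads. The IDs apart among all members (1988 higher, 2192 lower) stayed within 1.5 times these numbers under TMM, DESeq2 and upper quartile scaling. They also did so with a prior count of 2, with a minimum in CPM and without IDs that share values. They were 3975 and 3777 with a minimum of 20 counts, 419 and 571 with 200, 580 and 590 with 50 in both inputs, 7154 and 5976 with no minimum, 916 and 1206 with counts halved (as if both reads of a fragment were counted), 3053 and 3506 at 1.5-fold, and 1110 and 1158 at 4-fold. The share of higher calls was 47.6% in the main setting, 42.3% with a minimum of 200 counts and 54.5% with no minimum. The IDs with at least 500 counts (114 and 214) numbered 72 and 129 for whole values, 32 and 77 with counts halved, 495 and 810 at 1.5-fold and 6 and 12 at 4-fold. These settings change the IDs counted or the fold by construction. The median log2 ratio (-0.03) was -0.0029 with TMM, -0.0090 with DESeq2 size factors and 0.0021 with upper quartile scaling, which shift all IDs by 0.017 to 0.028. It was -0.012 with a minimum of 20 counts, -0.015 with 50 in both, 0.021 with no minimum, -0.034 for whole values and -0.018 with a minimum in CPM, so the centre has no stable sign. The spread (0.51) was 0.70 with a minimum of 20 counts, 0.35 with 200, 0.38 with 50 in both, 1.01 with no minimum, 0.62 for whole values, 0.41 with counts halved and 0.50 with a minimum in CPM. The median RIP ratios of the higher and of the lower IDs stayed below 0 in all 14 alternatives. None of these rescaled the RIP libraries, so they do not test this sign. The median RIP log2 ratio was -0.044 over all members. From a peak count of 500 upward it was 0.021 for the higher IDs and -0.0023 for the lower ones. No library could be left out, as each group has 1. No paired analysis was possible because each group holds 1 library. Scaling on protein-coding IDs was not run, since classes could not be matched. In the class from 50 counts the spread over IDs with a count in both inputs (1.73 on the log2 scale) exceeds a 2-fold difference. The counting SD over the same IDs was 0.32. With the IDs at 0 included, the spread was 2.73. The cause of the spread was not tested.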
